A study of Drosophila simulans with 12 samples.

Results

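The sterile effect in testis minus the sterile effect in abdomen was taken for every gene with 1 symbol on both array designs, with the probe set of highest mean in each table standing for the gene. The effect in a tissue was log2 of the sterile over the fertile line, so the difference is negative where a gene was lower in sterile testis than its abdomen values would give. Of 11982 gene symbols in the testis table and 10844 in the abdomen table, 10756 were on both designs and form the set described here, and 4709 of these passed a filter on low values in both tissues and were tested. The males were Drosophila simulans of 2 lines, aged 3 to 4 days, and both lines carried a stretch of the X chromosome from D. mauritiana. One line was sterile and the other fertile, and per the series design the introgressions of the 2 lines are alike but for a piece of about 3 Kb with exons 3 and 4 of OdsH. Testes (about 150 males per line) and abdomens (about 50 males) were pooled, with 3 arrays per line and tissue labelled A, B and C, 12 arrays in all.

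A single sterile line stood against a single fertile line, so line and OdsH variant cannot be told apart. Tissue and array design cannot be told apart either, because testis was measured on one Affymetrix design and abdomen on another. Both designs carry probes for D. melanogaster genes, so intensities of one gene are not comparable between tissues and only the 2 sterile effects are set against each other. The labels do not tie the 3 extractions of a group to separate cultures, and p-values cover the spread among these arrays, which may be technical. They also do not say that testes were removed from the abdomens.

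OdsH is a homeobox gene that arose by duplication of unc-4 and is known as a hybrid sterility gene between D. simulans and D. mauritiana. The testis of the fly holds the germline from stem cell to sperm, and next to it lie the accessory glands and the ejaculatory duct, which make seminal proteins. The abdomen adds the midgut, which secretes trypsins, Jonah-family proteases, maltases and lipases, the fat body, which stores lipid and makes circulating proteins, and the Malpighian tubules, muscle and blood cells. A difference between tissues asks whether the sterile and fertile lines differ in the same way in dissected testis and in abdomen samples. The abdomen samples may themselves hold testis.

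Of 15 testis marker genes, 13 were called present on all arrays of both testis lines, and their summed intensity was 54186 to 55177 in sterile and 54897 to 55458 in fertile testis. In abdomen 8 of the 15 reached the filter, so transcripts of testis marker genes were also measured in abdomen. Precision differed between the tissues. The median residual SD on the log2(intensity + 16) scale was 0.04 in testis and 0.28 in abdomen, and the median SE of a sterile effect was 0.04 and 0.24. Array medians were 212 to 216 in sterile and 219 to 222 in fertile testis, and 208 to 223 in abdomen.

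The sterile effect differed between testis and abdomen for 249 of the 4709 tested genes (5.29%; limma, Benjamini-Hochberg adjusted p under 0.05). At an unadjusted p under 0.05 there were 874 genes (18.6%), 577 negative (12.3%) and 297 positive (6.31%). The difference was negative for 177 of the 249 (3.76% of tested genes) and positive for 72 (1.53%). It was at least 1 on the log2 scale, in either direction, for 125 of them (2.65%), 95 negative and 30 positive. When the spread was estimated in each tissue separately, 178 genes passed (3.78%), 122 negative (2.59%) and 56 positive (1.19%), and 173 of these were among the 249. Without any one of the 6 testis arrays the count was 122 to 130. Without an abdomen array it was 302 to 403, the 403 without sterile replicate C. With separate spreads these counts were 174 to 186 without a testis array and 107 to 140 without an abdomen array. After quantile normalization 230 genes passed, 90 positive and 140 negative, and after median centring 204, 77 positive and 127 negative. With a block for the replicate letters, 312 genes passed, 211 of them among the 249.

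Across all tested genes the difference had a median of -0.07, and the middle 90% of genes lay between -0.83 and 0.63 on the log2 scale. The smallest difference that passed was 0.38 in size and the median size among the 249 was 1.00. Sterile effects in the 2 tissues were weakly related across the 4709 genes, with a Pearson correlation of 0.13 and a Spearman correlation of 0.12, and 54.1% of genes had the same sign in both. These are descriptions across genes, which are not independent replicates and share their arrays.

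The tissues entered the 249 differences unevenly. Within testis alone, 3107 of the tested genes passed between the lines (66%), and within abdomen 18 passed (0.382%). Of the 177 negative differences, 160 were genes that fell in sterile testis, as 42.6% of all tested genes did. Of the 72 positive ones, 55 were genes that rose there, as 23.4% did. The 3 sterile and 3 fertile values did not overlap in testis for 68.7% of tested genes and in abdomen for 14.5%. The testis effect was the larger of the 2 in 112 negative and 39 positive differences, and the abdomen effect in 65 and 33. The effects had opposite signs in 186 of the 249, in 150 of 204 after median centring and in 177 of 230 after quantile normalization. Over all tested genes 54.1% had the same sign. Opposite signs enlarge a difference, so these counts follow in part from selection on it. Of the 249, 45 belong to a gene list used here and 204 to none, and 89 are named by a CG number alone, as are 1743 of the 4709 tested genes. The calls were also counted by detection. Of 4286 genes present on all 6 testis arrays, 192 were called (4.48%). Of the other 423 genes, 57 were called, 23 of them absent on every sterile testis array and 3 absent on every fertile testis array. These 423 genes passed the testis filter only through the sterile line (171) or only through the fertile line (252). A gap in testis detection between the lines was thus part of their selection, so their count is a description and not support.

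**Figure D1:**
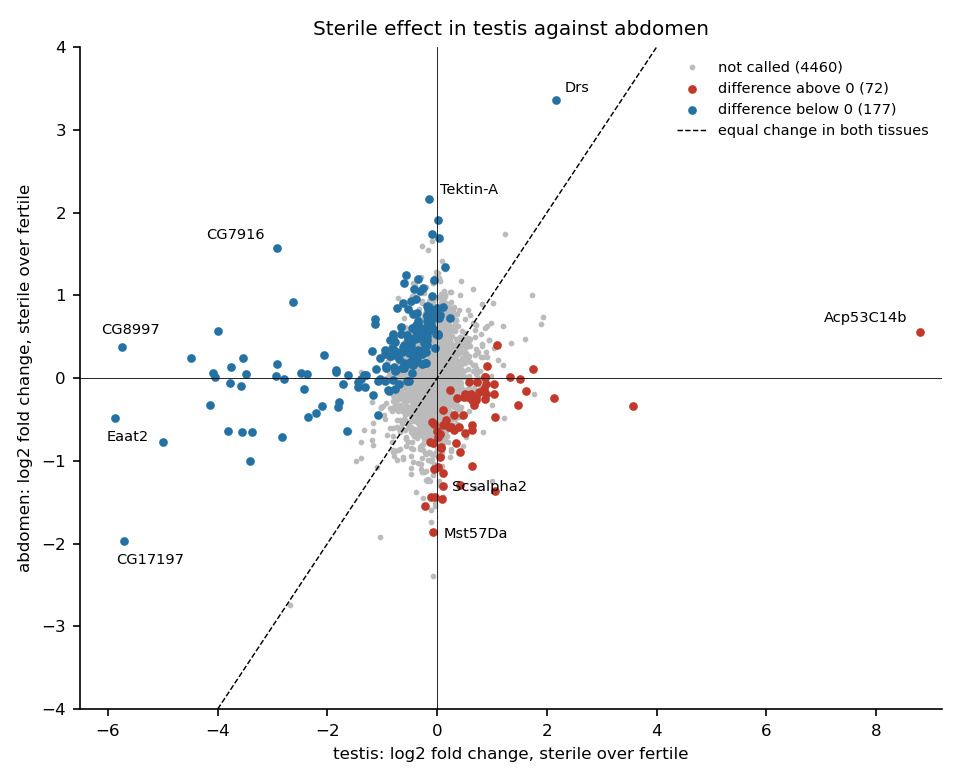
Sterile effect in testis (x axis) against abdomen (y axis), both as log2 fold change of sterile over fertile, for the 4709 tested genes. Points off the dashed line of equal change are coloured where the difference passed (177 below 0, 72 above 0); the negative ones spread far to the left at abdomen effects near 0, with Drs farthest up and Acp53C14b farthest right.

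Genes of the midgut lists, mostly for digestive enzymes, were lower in sterile than in fertile testis samples, where 26 of 27 tested genes fell. In abdomen they went both ways. The abdomen groups overlapped for 17 of the 27 and stood apart for 10, beside 14.5% of all tested genes. In abdomen CG7916 and Jon65Ai passed as higher and CG6283 as lower in the sterile line, 3 of 27 beside 0.382% of all tested genes. Abdomen effects beyond 0.5 in size on the log2 scale numbered 12, 8 above and 4 below 0, against 14.2% of all tested genes. Digestive proteases cut dietary protein in the gut lumen, and maltases and lipases act on sugar chains and fat. The midgut lists hold 56 genes on both designs, of which 27 were tested, 20 had a negative difference that passed and none a positive one, beside 3.76% and 1.53% of all tested genes. At an unadjusted p under 0.05, 25 were negative and none positive, and with separate spreads 23 passed, all negative. Of the 27, 18 were called present on all 3 fertile but not on all 3 sterile testis arrays, and 1 the other way round. The 18 passed only through the line in which they were high, so the count is a description and not support. The 8 genes present on all 6 testis arrays all had a difference below 0, and 4 of them passed, namely yip7, Bace, Jon74E and lambdaTry. With a filter on the mean over all arrays in place of detection calls, 14 of 17 passed as negative, beside 2.89% of all genes. That mean includes the fertile arrays, so a gene can pass it through high values in 1 line. This count too is a description and not support. The median difference was -2.78 over the 27, with a median sterile effect of -2.79 in testis and 0.06 in abdomen, against -0.07, -0.05 and 0.01 over all tested genes. The count was 20 of 27 under both scaling alternatives.

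yip7, a Jonah-type serine protease gene, had intensities of 114, 92.1 and 112 in sterile and 2029.6, 2055 and 2052 in fertile testis. Abdomen values were 40258, 43995 and 32091 in sterile and 40445, 38612 and 32235 in fertile abdomen. The testis groups were far apart while the abdomen groups overlapped, and the difference was -4.14 ± 0.17 (SE, adjusted p = 3.2e-08). Bace, which encodes an aspartic protease, measured 103, 115 and 103 in sterile and 1405, 1419 and 1425 in fertile testis. In abdomen it read 46401, 50841 and 36712 in sterile and 40783, 38904 and 32659 in fertile abdomen, again with overlap, and the difference was -3.79 ± 0.16 (SE, adjusted p = 3.2e-08). Jon74E, a further Jonah protease, followed the same pattern. Its arrays gave 100.2, 108 and 88.7 in sterile and 789, 779 and 761 in fertile testis. Those of abdomen gave 30639.8, 39843 and 27503 in sterile and 31318, 34187 and 31970.5 in fertile abdomen, and the difference was -2.78 ± 0.17 (SE, adjusted p = 5.45e-07). lambdaTry, a trypsin, had means of 54.4 against 215 in sterile and fertile testis and 1988 against 2097 in abdomen, and a difference of -1.64 ± 0.19 (SE, adjusted p = 0.000206). Of the other 4 genes present on all 6 testis arrays, Ser8, Mal-A2, Mal-A6 and Mal-B2, none passed with the pooled spread, with differences of -0.78, -1.33, -0.93 and -1.20 (adjusted p = 0.0561, 0.129, 0.0999 and 0.0581). With separate spreads Ser8 and Mal-B2 passed (adjusted p = 0.0463 and 0.041), as did the partly present Jon65Aii (0.0301).

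Other digestive genes were called absent on all 3 sterile testis arrays, where the fitted size depends on the pseudocount of 16 and is no measured fold. epsilonTry, a trypsin, measured 90.6, 76.4 and 72.3 in sterile and 1330.4, 1307 and 1325 in fertile testis. In abdomen it read 26236, 34352 and 26166 in sterile and 45181, 47758 and 41711 in fertile abdomen, so sterile values were lower in both tissues with no overlap, and the difference passed (adjusted p = 1.13e-07). Jon25Bi, a Jonah protease, had 22.9, 12.9 and 4.50 in sterile and 897, 857 and 937 in fertile testis. Its abdomen intensities of 16027, 24613 and 16656 in sterile and 34576, 32435 and 28946 in fertile abdomen also did not overlap, and the difference passed (adjusted p = 2.17e-06). The alpha-glucosidase gene Mal-A1 had -3.11, -24.0 and -9.55 in sterile and 250.1, 229.8 and 241 in fertile testis. The abdomen arrays gave 21076, 16377 and 21413 in sterile and 17245, 12621 and 10309 in fertile abdomen, and here the sterile mean was the higher one while the groups overlapped (adjusted p of the difference = 1.41e-07). All sterile testis values of Mal-A1 lay below 0 and were set to 0, so its p measures no spread among them. The same held in sterile testis for Eaat2 and CG17197 and in fertile testis for Acp53C14b, 4 of the 4709 tested genes in all.

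CG8997, a gene of the gut list, showed 2.40, 1.30 and 0.01 in sterile and 912, 893 and 919.7 in fertile testis. The abdomen values of 5139, 4142 and 6229 in sterile and 4403, 3558 and 3837 in fertile abdomen overlapped, and the difference passed (adjusted p = 5.78e-09). The trypsin betaTry went from a fertile testis mean of 1804 to 118 in sterile testis beside abdomen means of 51983 and 49840.3 in fertile and sterile males (called present on only part of the sterile testis arrays, adjusted p = 1.52e-07). Jon65Aiii and Jon65Aiv, also partly present, had testis means of 136 against 2486 and 291 against 3393 in sterile and fertile males and abdomen means of 17064 against 16417 and 56118 against 53788. Both differences passed (adjusted p = 1.52e-07 and 1.18e-07). Mal-A5 was the exception among the 27, with testis means of 174 against 171 and a difference of 0.36 that did not pass (adjusted p = 0.484).

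**Figure D2:**
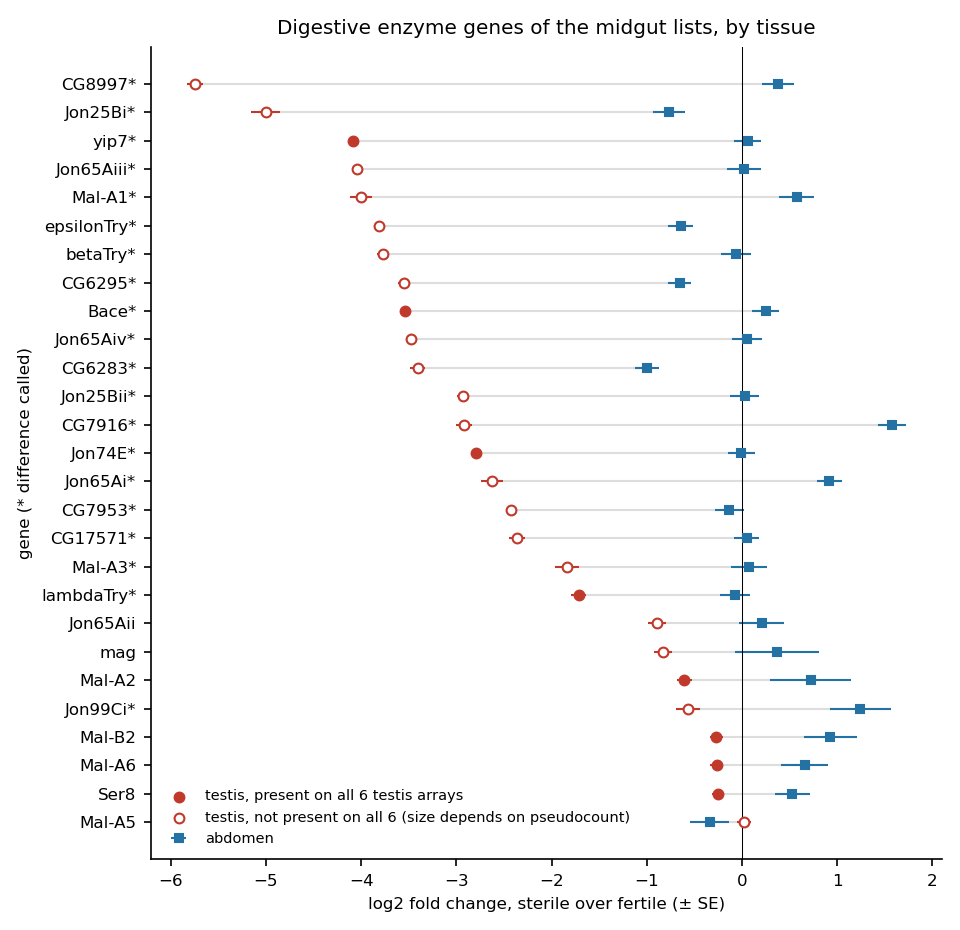
Log2 fold change of sterile over fertile (x axis, ± SE) for the 27 tested genes of the midgut lists, in testis (circles, open where the gene was not present on all 6 testis arrays) and abdomen (squares). With a pseudocount of 16, testis values run down to -5.75 for CG8997, while abdomen values lie between -0.998 (CG6283) and 1.57 (CG7916); an asterisk marks the 20 called differences.

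As a marker set, the 31 protease genes summed to 3473 to 3668 in sterile and 22966 to 23231 in fertile testis, and 16 of the 31 were absent on all sterile testis arrays against 4 on all fertile ones. In abdomen the same sums were 375051 to 518153 and 400637 to 475070.1, which overlap. The 25 genes for sugar- and fat-digesting enzymes, lysozymes and gut proteins summed to 2523 to 2650.3 and 6878 to 7046 in testis, with 17 and 8 absent. The share of all genes absent in each line is not given here, so these counts are a description. For comparison, 27 and 24 of 80 cytochrome P450 genes and 13 and 18 of 35 odorant-binding genes were absent in sterile and fertile testis. The part of gut tissue in the dissected testis samples was not tested. In such bulk samples, fewer cells of a type and less RNA per cell cannot be told apart. Other tissue markers moved in testis by less. Summed fat body markers were 10633 to 10733 in sterile and 12203 to 12548 in fertile testis, muscle markers 20204 to 20695 and 21201 to 21363, Malpighian tubule markers 4379 to 4443 and 6159 to 6327, and haemocyte markers 4253 to 4372 and 4908 to 5005. None of these 4 pairs overlapped, beside 68.7% of single tested genes whose testis values did not overlap. Array medians were also lower in sterile testis, at 212 to 216 against 219 to 222. In abdomen the Malpighian tubule sums, 4074 to 5109 in sterile and 5626 to 6261 in fertile males, were also apart, and the other 3 overlapped.

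In 16 genes both tissues passed on their own, 7 with opposite signs and 9 with the same sign, and all 7 opposite ones and 7 of the 9 passed the difference. Opposite effects add up in a difference, so the passing of those 7 is no separate support. After median centring 8 genes passed in both tissues, 4 opposite and 4 same, and after quantile normalization 16, 6 and 10. CG7916, a second gene of the gut list, was lower in sterile testis at 67.1, 47.4 and 63.5 in sterile and 562, 546 and 541 in fertile testis, and higher in sterile abdomen at 5086, 4490.5 and 6087 in sterile and 1809, 1692 and 1689.6 in fertile abdomen. Groups did not overlap in either tissue (adjusted p of the difference = 3.2e-08). Jon65Ai, a Jonah protease, did the same with 28.0 ± 8.29 in sterile and 252 ± 7.44 in fertile testis (± is the SD over 3 arrays here and in every such pair of means). Its abdomen values were 16466, 20103 and 15990.2 in sterile and 9773, 8629 and 9299 in fertile abdomen (adjusted p of the difference = 1.7e-07).

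Gdh, glutamate dehydrogenase, was another of the opposite genes and measured 2430.2, 2430.2 and 2356 in sterile and 3089, 3168 and 3067 in fertile testis. Abdomen arrays gave 5204, 5151 and 5533 in sterile and 3345, 3031 and 2815 in fertile abdomen, so the sterile line was the lower in testis and the higher in abdomen without overlap, and the difference was -1.16 ± 0.10 (SE, adjusted p = 2.38e-05). Its abdomen call was lost after median centring (adjusted p = 0.0549), as was that of CG11594 (0.0533), while the differences held. CG11594 had 337, 336 and 329.9 in sterile and 514, 511 and 516 in fertile testis. The corresponding abdomen intensities were 2276, 1892 and 3145 in sterile and 1004, 1110.0 and 1086 in fertile abdomen, and the difference was -1.75 ± 0.22 (SE, adjusted p = 0.000405). Mpcp2, the mitochondrial phosphate carrier, had 5438, 5313 and 5576 in sterile and 5814, 5586 and 5700.1 in fertile testis. In abdomen it had 3800.2, 3785 and 3399 in sterile and 1509, 1595 and 1716 in fertile abdomen. The testis effect was only -0.07 ± 0.02 (SE), with an adjusted p of 0.416 when arrays were centred on their medians and 0.0617 with quantile normalization. The abdomen effect was 1.18 ± 0.14 (SE), and the difference of -1.25 ± 0.10 (SE, adjusted p = 9.22e-06) passed under both scalings. This pooled SE lies below that of the abdomen effect alone and overstates the precision. With separate spreads the SE of the difference was 0.14 (adjusted p = 0.000277).

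Scsalpha2, an alpha subunit of succinyl-CoA synthetase, was the one opposite gene that was higher in sterile testis, at 4150.0, 4189 and 3992 in sterile and 3919, 3892 and 3798 in fertile testis. Its abdomen values were 477, 506 and 605 in sterile and 1253, 1369.8 and 1886 in fertile abdomen. The sterile abdomens were all lower, and the difference was 1.55 ± 0.19 (SE, adjusted p = 0.000454). Tektin-A, a filament protein of the sperm axoneme, gave 2304, 2174 and 2250.3 in sterile and 2583, 2434 and 2406 in fertile testis. In abdomen it gave 749, 621 and 706 in sterile and 107, 256 and 99.3 in fertile abdomen, with every sterile array above every fertile one, and the difference was -2.31 ± 0.36 (SE, adjusted p = 0.00231). Its testis effect of -0.14 ± 0.03 (SE) was small beside the abdomen effect of 2.17 ± 0.35.

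Among genes that passed in both tissues with the same sign, Drs, which encodes the antifungal peptide drosomycin, was far higher in the sterile line, at 2371, 2505 and 2518 in sterile and 529.8, 539 and 534 in fertile testis. The abdomen intensities were 6835, 3612 and 5729 in sterile and 494, 595 and 411 in fertile abdomen. No groups overlapped, and the rise was larger in abdomen, with a difference of -1.18 ± 0.28 (SE, adjusted p = 0.0299). This call was lost with the replicate block (adjusted p = 0.0761), without any of the 6 testis arrays or fertile abdomen replicate C, and, with separate spreads, without sterile abdomen replicate A or C or fertile abdomen replicate A or C, up to an adjusted p of 0.107. CG31883 was also higher in both, at 2665, 2417 and 2555 in sterile and 1096, 1054 and 1071 in fertile testis. Its abdomen values were 567, 489.8 and 714 in sterile and 168, 179.5 and 144 in fertile abdomen, and the difference of -0.51 did not pass (adjusted p = 0.178). Acp95EF, an accessory gland gene, rose little in testis (0.13 ± 0.05, SE) and more in abdomen, where it had 4553, 5373 and 4074 in sterile and 1541, 2343 and 1680.0 in fertile abdomen, with a difference of -1.20 ± 0.21 (SE, adjusted p = 0.00626). Dip-B, a dipeptidase, showed 0.11 ± 0.03 in testis and 0.86 ± 0.14 in abdomen, with a difference of -0.75 ± 0.12 (SE, adjusted p = 0.00265) that was lost, with separate spreads, without sterile abdomen replicate A or fertile abdomen replicate A or C, up to an adjusted p of 0.0792.

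Genes lower in both tissues included CG17197, of the palmitoyltransferase family, which was absent on all sterile testis arrays. Its testis values were -32.1, -20.7 and -15.2 in sterile and 768, 834 and 853 in fertile testis. In abdomen it had 89.3, 90.6 and 138 in sterile and 446, 389 and 543 in fertile abdomen, with no overlap, and the difference passed (adjusted p = 3.37e-06, with no spread among the sterile testis values set to 0). CG6283, a lipase gene, measured 43.2, 34.6 and 30.8 in sterile and 536, 522 and 546 in fertile testis. Abdomen intensities were 7110.1, 7008 and 7074 in sterile and 16062, 13265 and 13225 in fertile abdomen, again lower in every sterile sample (adjusted p of the difference = 8.2e-07). CG16926 fell by 0.47 on the log2 scale in testis and decreased by 1.08 in abdomen, and the difference did not pass (adjusted p = 0.111). After median centring the abdomen effects of CG17197, CG16926 and Dip-B no longer passed (adjusted p = 0.0523 for each).

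Mst57Da, an accessory gland transcript, and RpL28, a protein of the large cytoplasmic ribosomal subunit, were lower mainly in sterile abdomen. Mst57Da had 8039, 7985 and 8243 in sterile and 8614, 8429 and 8549 in fertile testis. Abdomen values were 10208, 9431 and 6644 in sterile and 35089, 26674 and 32572 in fertile abdomen, and the difference was 1.78 ± 0.20 (SE, adjusted p = 0.000155). RpL28 measured 6533, 6350.0 and 6460.2 in sterile and 6571, 6729 and 6650.3 in fertile testis. In abdomen it measured 5699.9, 7382 and 4516 in sterile and 15854, 14825 and 16149 in fertile abdomen, and the difference was 1.39 ± 0.18 (SE, adjusted p = 0.000755). After median centring the small testis effects of Mst57Da and RpL28 no longer passed (adjusted p = 0.164 and 0.978), and both differences still did.

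**Figure D3:**
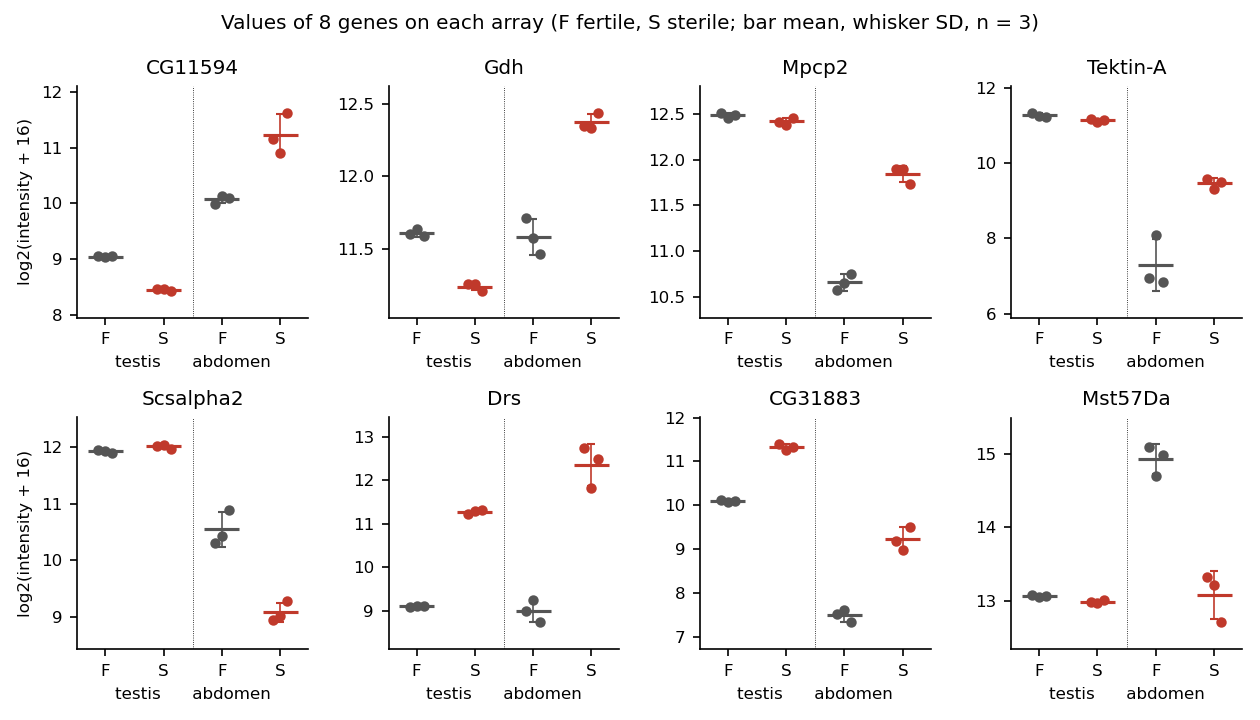
Log2(intensity + 16) on each array for 8 genes (points; F fertile, S sterile; bar mean, whisker SD, n = 3), with testis at the left and abdomen at the right of each panel. CG11594, Gdh, Mpcp2 and Tektin-A have the sterile line lower in testis and higher in abdomen, Scsalpha2 the reverse, and Drs and CG31883 are higher in the sterile line in both tissues; levels are not comparable between tissues.

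Among called genes present on all 6 testis arrays and free of overlap in at least 1 tissue, the 10 largest positive differences were those of Vps33B, Phk-3, Mst57Da, Pop2, CG10657, CG2736, Scsalpha2, CG17738, CG16772 and RpL28. Pop2, a deadenylase of the CCR4-NOT complex that shortens messenger RNA tails, had 1885, 1809.8 and 1846 in sterile and 584, 582 and 602 in fertile testis. Abdomen values were 258, 475 and 458 in sterile and 359, 464 and 475 in fertile abdomen, which overlap, and the difference was 1.78 ± 0.28 (SE, adjusted p = 0.00255). CG2736, a scavenger receptor gene of the CD36 family, had 293, 280.2 and 303 in sterile and 77.2, 68.9 and 81.7 in fertile testis. In abdomen it had 2041, 2078 and 2034 in sterile and 2172, 1544 and 2067 in fertile abdomen, with a difference of 1.64 ± 0.19 (SE, adjusted p = 0.000234). CG16772 followed suit, with 1.52 ± 0.04 in testis, -0.01 ± 0.22 in abdomen and a difference of 1.53 ± 0.26 (SE, adjusted p = 0.00529).

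CG10657 and CG17738 were higher in sterile testis and lower in sterile abdomen on every array. CG10657 measured 866, 898 and 932 in sterile and 582, 579.6 and 549 in fertile testis. Its abdomen intensities were 1970.0, 1217 and 1618 in sterile and 3818, 2910.2 and 3278 in fertile abdomen, and the difference was 1.71 ± 0.22 (SE, adjusted p = 0.00054). CG17738 measured 3027, 2965 and 2997 in sterile and 1395, 1437 and 1445 in fertile testis. The abdomen arrays gave 16078, 12453 and 15397 in sterile and 22455, 18751 and 19694 in fertile abdomen, and the difference was 1.54 ± 0.13 (SE, adjusted p = 1.79e-05). For neither gene did the abdomen effect pass on its own (adjusted p = 0.0559 and 0.235).

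The largest of the positive set, Vps33B, an endosomal trafficking gene, had scattered sterile abdomen values. It had 719, 699.8 and 751 in sterile and 328, 343 and 347 in fertile testis, and 279.9, 48.0 and 127 in sterile and 400.4, 353 and 287 in fertile abdomen. Its difference was 2.43 ± 0.56 (SE, adjusted p = 0.0288), and the call was lost without any of the 6 testis arrays or fertile abdomen replicate A, and, with separate spreads, without sterile abdomen replicate C or any fertile abdomen array, up to an adjusted p of 0.105. Phk-3, of the insect chemosensory protein family, had 1430.1, 1478 and 1467 in sterile and 535, 487 and 532 in fertile testis and a difference of 1.79 ± 0.37 (SE, adjusted p = 0.016). That call was lost without sterile or fertile testis replicate B, and, with separate spreads, without sterile abdomen replicate A or B or fertile abdomen replicate A or C, up to an adjusted p of 0.0698. Acp53C14b, an accessory gland gene absent on all fertile testis arrays, had 7077, 6943 and 7211 in sterile and -33.5, -32.6 and -33.2 in fertile testis. The abdomen values were 1799.9, 1858 and 2223 in sterile and 1369.6, 1046 and 1626 in fertile abdomen, so the near-absence in the fertile line was seen in testis and not in abdomen. All fertile testis values of Acp53C14b lay below 0 and were set to 0, so its p measures no spread among them. Its fitted difference of 8.24 ran from 6.27 to 12.23 over the alternatives and is no measured fold.

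The 10 largest negative differences by the same rule held yip7, Bace, Jon74E and Tektin-A as well as CG10472, CG34324, Acbp5, Usp15-31, Cdc14 and mRpS35. CG10472, a serine protease gene outside the midgut lists, had 85.7, 84.2 and 66.4 in sterile and 1249, 1246 and 1259.8 in fertile testis. Its abdomen values of 19851, 21232 and 16318 in sterile and 16211, 19609.5 and 16590.3 in fertile abdomen overlapped, and the difference was -3.88 ± 0.17 (SE, adjusted p = 3.2e-08). CG34324 gave 105 ± 4.56 in sterile and 1434 ± 9.26 in fertile testis and 32192 ± 2056 in sterile and 34652 ± 4639 in fertile abdomen, with a difference of -3.48 ± 0.13 (SE, adjusted p = 1.67e-08). Acbp5, an acyl-CoA binding protein, gave 68.6 ± 5.33 in sterile and 336 ± 20.5 in fertile testis and 4385 ± 822 in sterile and 3597 ± 425 in fertile abdomen, with a difference of -2.33 ± 0.20 (SE, adjusted p = 1.79e-05). CG12374, a carboxypeptidase gene absent on all sterile testis arrays, gave 105 ± 3.57 in sterile and 2117 ± 19.5 in fertile testis, beside 46456 ± 11377 in sterile and 57342 ± 5652 in fertile abdomen (adjusted p of the difference = 1.52e-07).

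mRpS35, of the small subunit of the mitochondrial ribosome, had 389, 349 and 328 in sterile and 1731, 1639 and 1721 in fertile testis. In abdomen it had 568, 679 and 681 in sterile and 807, 851 and 933 in fertile abdomen, lower in the sterile line in both tissues without overlap, and the difference was -1.79 ± 0.16 (SE, adjusted p = 2.09e-05). Cdc14, a cell-cycle phosphatase, showed its gap in abdomen. Its testis values were 3389, 3535 and 3446 in sterile and 3384, 3437 and 3490.4 in fertile testis. The abdomen values were 349, 593 and 532 in sterile and 81.7, 142 and 132 in fertile abdomen, so that only the abdomen groups stood apart, with a difference of -1.90 ± 0.28 (SE, adjusted p = 0.00177). With separate spreads the call was lost without sterile abdomen replicate B or C (adjusted p up to 0.0863). Usp15-31, a ubiquitin-specific protease, had 33.2 ± 9.73 in sterile and 329 ± 15.8 in fertile testis and 245 ± 118 in sterile and 389 ± 106 in fertile abdomen, and a difference of -2.12 ± 0.45 (SE, adjusted p = 0.0176). Its call was lost with the mean of probe sets, without sterile testis replicate B or any fertile testis array, and, with separate spreads, without sterile abdomen replicate A (adjusted p up to 0.0788). Eaat2, a transporter of excitatory amino acids and the only tested gene of the neuron list, was absent on all sterile testis arrays. It had -13.5, -20.3 and -28.9 in sterile and 945, 947 and 886 in fertile testis. Abdomen values of 369, 241 and 569.7 in sterile and 522, 414 and 674 in fertile abdomen overlapped (adjusted p of the difference = 1.86e-06, with no spread among the sterile testis values set to 0).

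In 9 lists of sperm production and germline genes, 1 of 57 tested genes passed, Tektin-A, or 1.75% beside 5.29% of all tested genes. At an unadjusted p under 0.05 there were 7 (12.3%), beside 18.6%. In 7 of these, the lists other than the axoneme and piRNA ones, no difference passed. Testis markers, structural genes of spermiogenesis, meiotic arrest and meiosis genes, cup and comet genes, testis proteasome genes, individualization genes and stem cell, hub and cyst genes held 7, 12, 4, 8, 5, 14 and 8 tested genes, and none passed in either direction by limma with pooled or with separate spreads. Counted once, the 51 genes of these lists held 1 positive and 5 negative differences at an unadjusted p under 0.05. In the same order, the median differences of the 7 lists were 0.10, 0.13, -0.14, -0.13, 0.21, 0.04 and -0.18, beside -0.07 for all tested genes. betaTub85D, the testis-specific beta-tubulin of the axoneme, measured 5867 ± 38.6 in sterile and 5678 ± 27.6 in fertile testis and 360.1 ± 87.4 in sterile and 499 ± 52.3 in fertile abdomen, with a difference of 0.52 that did not pass (adjusted p = 0.176). Of the spermiogenesis genes, 1 passed as negative with the replicate block. Tektin-A belongs to the list of axoneme and Y-linked genes, with 6 tested. The 11 members on both designs held none of the Y-linked genes of that list, such as kl-2, kl-3 and kl-5, so these were not tested. Only 1 piRNA gene, tud, was tested, with a difference of -0.01 that did not pass (adjusted p = 0.988). Abdomen spread limits these counts, since the median SE of a difference was 0.23. The filters limit them too. Not tested were 16 of 20 meiotic arrest and meiosis genes and 17 of 18 piRNA genes. Nor were 9 of 17 stem cell, hub and cyst genes and 8 of 15 testis markers. Among these, aly, topi, can and sa were present on all 6 testis arrays but below the abdomen filter. The counts therefore do not cover genes of these lists with low abdomen signal.

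Accessory gland and ejaculatory duct genes, whose products enter the seminal fluid, went both ways. Of 20 tested, Acp53C14b, Mst57Da and Ebp passed as positive and Acp95EF as negative, beside 1.53% and 3.76% of all tested genes, and the median difference was 0.02. Ebp, an ejaculatory bulb protein, had testis means of 6715 against 5702 in sterile and fertile males and abdomen means of 7771 against 8611. Its difference of 0.38 ± 0.08 (SE, adjusted p = 0.0122) did not pass with separate spreads (adjusted p = 0.102). With the replicate block 6 genes of this list were positive. The summed level of the 27 list genes on both designs was 118072 to 119437 in sterile and 115670.3 to 117076 in fertile testis. In abdomen it was 62213 to 67317 and 74942 to 91679, lower in the sterile line without overlap, but this rested on Mst57Da. That gene alone had abdomen means of 8761 in sterile and 31445 in fertile males, a wider gap than that of the median sums (66894 and 87697). The lower abdomen sum is thus no shift of the list as a whole. The sterile sum in testis was the higher one with Acp53C14b. Without that gene, a choice made after seeing the data, the testis sums were 111129 to 112359.9 in sterile and 115670.3 to 117076 in fertile males. The sterile line was then the lower without overlap, beside 68.7% of single tested genes whose testis values did not overlap. Of the 20 tested genes, 9 fell and 4 rose in sterile testis, beside 42.6% and 23.4% of all tested genes, and the median sterile effect was -0.05 there. The part of unequal amounts of gland tissue in the dissected samples was not tested.

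Of 27 cytochrome P450 genes, whose enzymes oxidise hormones and foreign compounds, 4 passed as negative and none as positive, beside 3.76% and 1.53% of all tested genes, with a median difference of -0.36. Cyp6d5 had 761 ± 19.3 in sterile and 1484 ± 29.8 in fertile testis and 2045 ± 402 in sterile and 1655 ± 157 in fertile abdomen, and a difference of -1.24 ± 0.18 (SE, adjusted p = 0.00145). Cyp6a21 and Cyp9f2 had differences of -1.08 ± 0.16 (SE, adjusted p = 0.00164) and -0.72 ± 0.14 (SE, adjusted p = 0.00908). Cyp4e3, partly present in sterile testis, had 95.6 ± 13.4 in sterile and 328 ± 4.22 in fertile testis, and 611 ± 160.0 in sterile and 586 ± 24.9 in fertile abdomen (adjusted p of the difference = 0.00164). None of 18 glutathione transferase genes passed in limma with pooled or separate spreads (1 positive and 1 negative at an unadjusted p under 0.05), and the median difference was -0.29. In the fat body list 2 of 12 passed as negative and none as positive, beside 3.76% and 1.53% of all tested genes. Of all 249 calls, 71.1% were negative. FASN1, fatty acid synthase, had 5767, 6283 and 6980.3 in sterile and 4534, 3174 and 3582 in fertile abdomen and a difference of -0.89 ± 0.16 (SE, adjusted p = 0.00803). apolpp, the precursor of the main lipid carrier of the blood, had a difference of -0.72 ± 0.16 (SE, adjusted p = 0.0209). The call of apolpp was lost without any of the 6 testis arrays and, with separate spreads, without sterile or fertile abdomen replicate A or C, up to an adjusted p of 0.0964.

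The remaining lists gave single genes, and their counts stand beside 3.76% negative and 1.53% positive calls among all tested genes. Of 64 respiratory chain and ATP synthase genes, ATPsynCF6, a coupling factor of ATP synthase, passed with 0.67 ± 0.10 (SE, adjusted p = 0.00132), and ND-B12, a subunit of complex I, with 0.90 ± 0.20 (SE, adjusted p = 0.0232). Both were lower in sterile abdomen, ATPsynCF6 at 14756, 13733 and 14069 in sterile and 22734, 21517 and 18926 in fertile abdomen. With the replicate block 7 genes of this list were positive and 1 negative. Of 46 mitochondrial ribosomal genes, mRpS35 and mRpL50 were negative and mRpL55 positive. Of 36 cytoplasmic ribosomal genes, RpL28 was positive and RpS30 negative. Odorant-binding genes counted 2 positive, Obp56g with 0.80 ± 0.13 (SE, adjusted p = 0.00279) and Obp56d, and 1 negative, Obp18a, of 9. Of 13 heat shock genes Hsp27 was negative, of 7 antimicrobial and immune genes Drs was, and of 5 haemocyte genes Pxn, a peroxidase of the extracellular matrix, was. No muscle gene of 17 and no Malpighian tubule gene of 7 passed in limma with pooled or separate spreads (2 positive and 1 negative muscle genes, and no Malpighian tubule gene, at an unadjusted p under 0.05), and after median centring 1 muscle gene passed as positive. The calls of ND-B12, mRpL50, RpS30, Obp56d, Hsp27 and Pxn were each lost with some single array left out, up to adjusted p values of 0.0776, 0.135, 0.16, 0.0976, 0.2 and 0.409 over all alternatives, and a second testis probe set of Pxn pointed the other way, with a log2 fold change of 0.18. With separate spreads RpS30, Hsp27 and Obp18a did not pass (adjusted p = 0.0533, 0.0703 and 0.085).

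**Figure D4:**
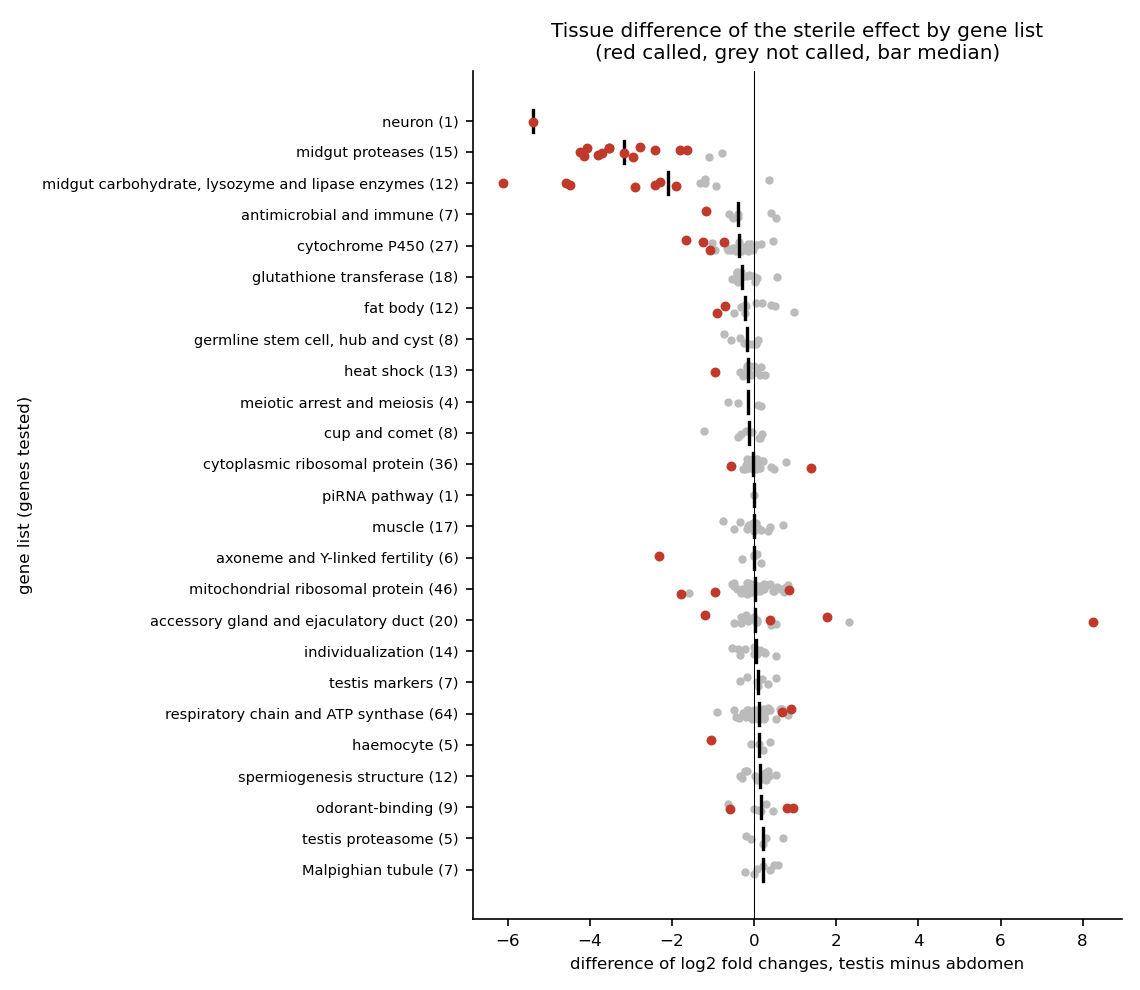
Difference of log2 fold changes, testis minus abdomen (x axis), for every tested gene of each list (y axis, number tested in parentheses; red called, grey not called, bar the median). The midgut lists lie far to the left with medians of -3.16 and -2.10, and the neuron entry is the single gene Eaat2; the other medians lie between -0.39 and 0.21.

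OdsH itself could not enter the comparison, having no present call on any of the 6 testis arrays. Testis intensities were 132, 127 and 124 in sterile and 183, 137 and 176 in fertile testis. In abdomen they were 49.4, 19.2 and 17.0 in sterile and 51.9, 33.6 and 17.6 in fertile abdomen, below the filter. unc-4, its paralog, was absent on all 6 testis arrays as well, with 73.3, 61.7 and 72.3 in sterile and 40.9, 56.1 and 48.9 in fertile testis, and 230.2, 32.3 and 223 in sterile and 124, 209.6 and 165 in fertile abdomen. The position of these probe sets within OdsH was not used here, and the values serve as no check of the labels.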

How the data were processed

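The deposited testis and abdomen tables hold the authors' intensities on a linear scale. The submitters' processing notes name MAS5, but 26 to 37 deposited testis intensities per array lie below 0, which MAS5 signals cannot, so how the testis intensities were made is not given in the sources used here. The authors' deposited detection calls, as a percent of each line's testis arrays, served for the testis filter. Left out were 12 single-array columns of that table, whose names fit a testis as well as an abdomen sample. Normalization by the authors beyond these notes is not given in the sources used here.

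Intensities below 0 were set to 0 and log2(intensity + 16) was taken, a scale that understates changes of dim genes. The testis filter asked for present calls throughout at least 1 line (7286 genes), the abdomen filter for a mean at or above the median over 13966 probe sets (5847 genes). The 44 control probe sets were left out. Symbols came from the platform annotation: 1 symbol went with 13647 testis and 12443 abdomen probe sets, several with 402 and 327, none with 4720 and 1196. The D. simulans gene table held none of the symbols, hence no position or sequence is given. The probe set of highest mean stood for a gene, with a choice to make for 1011 genes in testis and 1196 in abdomen.

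limma 3.58.1 in R 4.3.3 fitted all 12 arrays in 4 groups of 3 (lmFit, eBayes with intensity trend), and the contrast was sterile minus fertile in testis minus the same in abdomen, with Benjamini-Hochberg adjustment over the 4709 genes. Each tissue was also fitted alone. The pooled fit gives both tissues 1 spread, although it was far smaller in testis, so the alternative with a separate spread per tissue is set beside it. For some named genes the pooled SE of the difference lay below the SE of the abdomen effect alone, and it overstates their precision. Among these were Gdh, Mpcp2, Cdc14, Dip-B and ATPsynCF6. Their SEs with separate spreads were 0.13, 0.14, 0.35, 0.14 and 0.12, and the differences still passed (adjusted p = 0.000277, 0.000277, 0.014, 0.0146 and 0.00792). The fits were tested on simulated data with the tissues' unequal spreads, where sizes were recovered but the share of false calls lay above the threshold with the pooled spread and, by less, with separate spreads. The number of arrays limits the precision. Replicate letters were checked as pairs by correlations of same-letter deviations. These were -0.09, 0.18 and 0.08 in testis and 0.11, 0.20 and 0.24 in abdomen. All were over 0.1 in abdomen but not in testis, and whether letters pair the samples was not settled.

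Named genes were the 10 largest positive and negative differences among called genes present on all 6 testis arrays and without overlap in at least 1 tissue, the 5 called genes absent in 1 testis line with the largest testis difference in intensity, up to 8 genes of each kind called in both tissues, the 2 largest called of each of 25 lists (or the largest difference), OdsH and unc-4. Other list members are named after their values were seen. The genes, the lists and the rule were chosen with earlier results of these data known. Other settings numbered 23, plus 14 chosen after seeing the data, and the closing section gives their effects.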

Additional observations from a re-analysis of the deposited data

Results flagged for a closer look

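The sterile effect differed between testis and abdomen, by the test of that difference, for 249 genes in all, and 49 of these were named by the rule for named genes. The values below are differences of log2 fold changes, testis minus abdomen. Groups of 3 arrays are too small for a test of single outlying samples.

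Of the named genes present on all 6 testis arrays, 13 had a positive difference: Vps33B 2.43, Phk-3 1.79, Mst57Da 1.78, Pop2 1.78, CG10657 1.71, CG2736 1.64, Scsalpha2 1.55, CG17738 1.54, CG16772 1.53, RpL28 1.39, Obp56g 0.80, ND-B12 0.90, ATPsynCF6 0.67. A further 22 had a negative difference: yip7 -4.14, CG10472 -3.88, Bace -3.79, CG34324 -3.48, Jon74E -2.78, Acbp5 -2.33, Tektin-A -2.31, Usp15-31 -2.12, Cdc14 -1.90, mRpS35 -1.79, CG11594 -1.75, Gdh -1.16, Mpcp2 -1.25, Drs -1.18, Acp95EF -1.20, Dip-B -0.75, Cyp6d5 -1.24, FASN1 -0.89, apolpp -0.72, RpS30 -0.56, mRpL50 -0.94, Hsp27 -0.96. The other 14 were not present on all 6 testis arrays, and their fitted sizes, given here for a pseudocount of 16, depend on it and are no measured folds: Acp53C14b 8.24, CG12374 -3.81, epsilonTry -3.16, Eaat2 -5.39, CG8997 -6.13, CG7916 -4.49, Jon65Ai -3.54, CG17197 -3.73, CG6283 -2.41, Jon25Bi -4.24, Mal-A1 -4.57, Cyp4e3 -1.66, Obp56d 0.95, Pxn -1.04. Over the alternatives the size ran from 6.27 to 12.23 for Acp53C14b, from -9.21 to -4.27 for CG8997, from -9.35 to -3.52 for Eaat2, from -8.49 to -2.82 for Mal-A1 and from -7.56 to -2.16 for CG17197.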

How the results depend on the processing

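The count of 249 genes stayed within 1.5 times under median centring (204), quantile normalization (230), pseudocounts of 1 and 64 (247 and 240), no filter (309), detection on all 6 testis arrays (167), a mean filter (190), the mean of probe sets (223), no variance trend (253), separate spreads (178) and the replicate block (312). Separate spreads with the letter as a block in abdomen gave 276, and separate spreads with detection on all 6 testis arrays 93, which tests fewer genes. The count of 125 genes with a difference of at least 1 was 220 with no filter, 73 with detection on all 6 testis arrays, and 56 with that filter and separate spreads. The negative share was 71.1% as deposited, 62.3% after median centring and 60.9% after quantile normalization.

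With 1 array left out the pooled fit gave 122 to 403 genes, and 88 to 173 of size 1. It then weights the unequal tissue spreads unequally, so testis arrays lowered the counts (122 to 130) and abdomen arrays raised them (302 to 403). With separate spreads the ranges were 107 to 186 and 94 to 119. The replicate block takes the letters of each tissue as pairs, which was not settled. It gave 21 negative midgut calls in place of 20 and ended the call of Drs (adjusted p = 0.0761).

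No named gene that passed changed the sign of its difference under any alternative. Of the 49 named called genes, 36 kept the call in every alternative that tested them. The other 13 were Vps33B, Phk-3, Usp15-31, Cdc14, Drs, Dip-B, Obp56d, apolpp, Pxn, RpS30, ND-B12, mRpL50 and Hsp27. Each of these lost it with at least 1 array left out, and the highest adjusted p over all alternatives was 0.0976 for Obp56d, 0.0964 for apolpp, 0.409 for Pxn, 0.16 for RpS30, 0.0776 for ND-B12, 0.135 for mRpL50 and 0.2 for Hsp27. The 2 testis probe sets of Pxn disagree, with log2 fold changes of -1.08 and 0.18, and the causes of these losses were not tested. Low signal limits the genes absent in 1 testis line, and the abdomen spread (median SE 0.24) limits small differences.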
